A study of Mus musculus with 28 samples.

Results

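Livers of mice lacking Aag, a DNA glycosylase, were compared 24 h after methyl methanesulfonate (MMS) with untreated livers of the same genotype. Arrays were chosen by their titles: 4 named as Aag, MMS treated, 24 h, and 4 named as Aag, untreated, which is 8 of the 28 arrays in the series. The series asks how loss of Aag alters the transcriptional answer of liver to MMS, an agent that methylates DNA. It measured total RNA of whole liver, 1 sample per Affymetrix array, and also holds 8 Aag null arrays at 6, 12 or 48 h after MMS and 12 wild-type (WT) arrays, of which 2 were taken at 24 h. All 8 arrays compared here are Aag null, so the absence of the glycosylase is shared by treated and control livers. Sex, age, strain, dose, route, hour of sampling and any vehicle given to the untreated mice are not named in the labels. Nothing in the labels says which replicates came from different mice. A p-value therefore measures only the spread between arrays within groups, pooled over all 28 arrays of the series, which may be technical.

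Aag, encoded by Mpg, opens base excision repair by cutting methylated bases such as 3-methyladenine from DNA. The abasic site it leaves is nicked by Apex1, filled by DNA polymerase beta and sealed by a ligase with Xrcc1. In liver, the level of many transcripts also follows the time of day, feeding, glucocorticoids and sex: the clock drives outputs such as Dbp, Usp2 and Noct, and bile acid synthesis follows a daily course through Cyp7a1. Because whole liver was measured, fewer cells of a type and less RNA per cell cannot be told apart.

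Values are log2 signals, and a step of 1 is a doubling. The number of arrays limits the precision. Mean signal of the 9 hybridization controls, transcripts added in known amounts, lay between 8.09 and 8.49 on untreated replicates 1 and 2 and on all 4 arrays at 24 h, but at 10.25 and 10.63 on untreated replicates 3 and 4. The latter also had a Gapdh 3′ minus 5′ difference of 0.64 to 0.67, against -0.19 to 0.02 on the other 6 arrays. Untreated replicate 3 and replicates 1 and 2 at 24 h carried female-typical transcripts: Cyp2b9 read 7.73 to 8.22 on those 3 arrays and 3.00 to 4.21 on the other 5, and male-typical Hsd3b5 read 2.94 to 5.27 against 7.29 to 8.30. Hepatocyte markers were bright throughout, with a mean over 8 tested markers of 9.96 to 10.05 on untreated arrays and 10.21 to 10.29 at 24 h. Called genes whose changes are given below are therefore set also against untreated replicates 1 and 2 alone, and, where it matters, for replicates 3 and 4 at 24 h against those same 2 arrays, where neither split enters.

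Mpg itself was too dim to be tested. Its log2 signal was 2.40, 2.33, 2.35 and 2.30 on the untreated arrays and 2.36, 2.27, 2.60 and 2.38 at 24 h. The position of its probe set relative to the deleted stretch is unknown here, so these readings do not check the genotype.

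At 24 h, 26 genes were higher and 33 lower than in untreated Aag null liver (limma, adjusted p under 0.05). That is 0.474% and 0.601% of the 5487 genes tested, 1.08% together, and the median change of all tested genes was 0.02. The rises of at least 2-fold were Noct, Cyp7a1, Usp2, Tat, Mgst3 and Cd99, and the falls of that size were Kcnj9, Pigk, Hspa5, Mob1b and Rpa2. Changes were moderate: 11 of the 59 reached 2-fold, 6 upward and 5 downward. In 56 of the 59 the 4 treated and 4 untreated values did not overlap, as in 12.7% of all genes tested, and the exceptions were Mgst1, Zap70 and Tgm2. Without scaling between arrays the count was 84 higher and 24 lower.

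Against untreated replicates 1 and 2 alone, all 59 changes kept their sign and 21 kept their call, 13 higher and 8 lower. That comparison also called 59 genes, 41 higher and 18 lower (0.747% and 0.328% of those tested, 1.08% together), of which 38 were not called against all 4 untreated arrays. The set of called genes depended on single arrays: the count was 198 without untreated replicate 1, 40 without replicate 2, 22 without replicate 3 and 30 without replicate 4. It was 16, 9, 22 and 28 without replicates 1, 2, 3 and 4 at 24 h. Called in each of these 8 fits were Cyp7a1, Usp2, Pctp, 0610005C13Rik, Grhpr, Mbl1, Apmap and Mageb3. Without the 3 arrays carrying female-typical transcripts all 59 kept their sign, but Cyp7a1 alone passed the test.

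**Figure D1:**
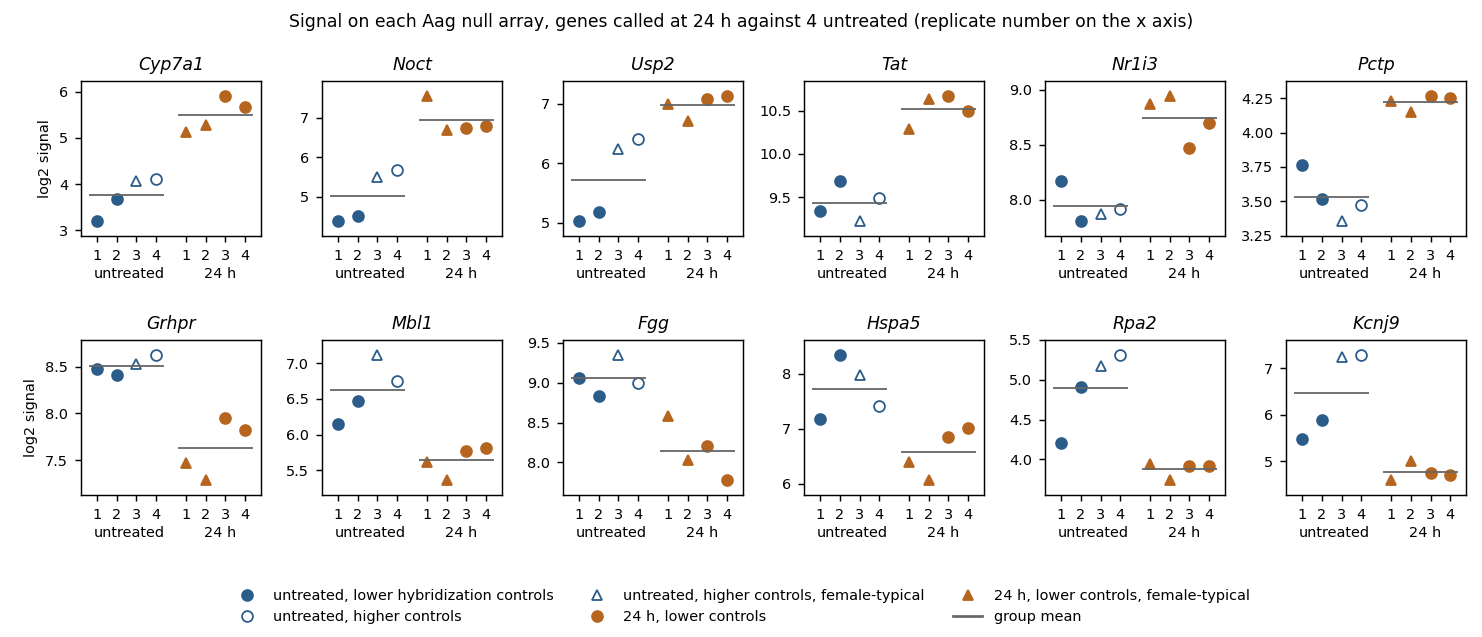
Log2 signal of 12 called genes on each of the 8 Aag null arrays, with replicate number on the x axis, a scale of its own for each gene and a line at each group mean. Open symbols mark untreated replicates 3 and 4, whose hybridization controls were higher, and triangles mark the arrays with female-typical transcripts; in all 12 genes the 24 h values lie on one side of the untreated values.

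Cyp7a1, the rate-limiting enzyme of classical bile acid synthesis, was the one gene called in each of the array choices above. Its log2 signal was 3.20, 3.67, 4.07 and 4.11 on the untreated arrays and 5.12, 5.27, 5.91 and 5.67 at 24 h. Every treated liver lay above every untreated one. The gene rose by 1.73 (SE 0.26, 3.32-fold, adjusted p = 0.002) against 4 untreated arrays, by 2.06 (adjusted p = 0.0011) against replicates 1 and 2, and by 2.35 (adjusted p = 0.0033) where neither split enters. Of 14 tested members of the synthesis and transport list, Cyp7a1 was called alone, and the list median was -0.06. Cyp8b1, the sterol hydroxylase that sets the share of cholic acid, had a change of 0.01, Nr0b2, the repressor SHP, -0.03, and the uptake carrier Slc10a1 -0.11. Cyp7b1, an enzyme of the alternative pathway that is also male-typical, read 7.76, 7.82, 5.11 and 6.72 untreated and 4.86, 4.74, 6.92 and 6.88 at 24 h. Its low values fell on the 3 female-typical arrays in both groups. Against untreated replicates 1 and 2 the export pump Abcc3 was higher by 0.83 (adjusted p = 0.0125) and Hsd3b7, the next step after Cyp7a1, lower by 0.69 (log2 change -0.69, adjusted p = 0.023).

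Noct and Usp2, known as outputs of the clock, were also among the rises of at least 2-fold. Noct, nocturnin, a rhythmic phosphatase of the liver, gave 4.39, 4.50, 5.50 and 5.68 untreated and 7.55, 6.69, 6.75 and 6.79 at 24 h. It rose by 1.93 (SE 0.36, 3.8-fold, adjusted p = 0.011), and by 2.50 (adjusted p = 0.0025) against replicates 1 and 2. Replicate 1 at 24 h was the highest, and without it the change was 1.72 and missed the threshold (adjusted p = 0.0503). A further probe set of Noct, 1 of 3, had the opposite sign. Usp2, a rhythmic ubiquitin protease, read 5.02, 5.17, 6.25 and 6.41 untreated and 6.99, 6.71, 7.08 and 7.13 at 24 h, a rise of 1.26 (SE 0.25, adjusted p = 0.016). Against replicates 1 and 2 it was 1.88 (adjusted p = 4.35e-05), and 2.01 (adjusted p = 0.00039) where neither split enters.

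In Noct and Usp2 the untreated arrays themselves fell into a low pair, replicates 1 and 2, and a high pair, replicates 3 and 4. Dbp, the PAR-domain factor whose mRNA swings widely over the day, showed this most: 3.88 and 3.62 on replicates 1 and 2 but 6.30 and 6.79 on replicates 3 and 4, with 5.93, 5.80, 5.88 and 5.79 at 24 h. The treated values lay between the pairs. Its change was 0.70 against all 4 (adjusted p = 0.47) and 2.10 against replicates 1 and 2 (adjusted p = 4.88e-06). The same pairs differ in hybridization controls, and no hour of sampling is given, so the part of time of day and of array set in these genes was not tested. Over the clock list, Usp2 was called alone among 12 tested members (1 higher, 0 lower), with a median of 0.45, and against replicates 1 and 2 Usp2 and Dbp were called and the median was 0.22. Among the core clock, Per1 had a change of 0.00, Cry1 0.03, Per3 0.12 and Nr1d1 -0.26. Tef, a relative of Dbp, had a change of 0.49 (adjusted p = 0.18) and the repressor Cry2 0.42 (adjusted p = 0.0502).

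**Figure D2:**
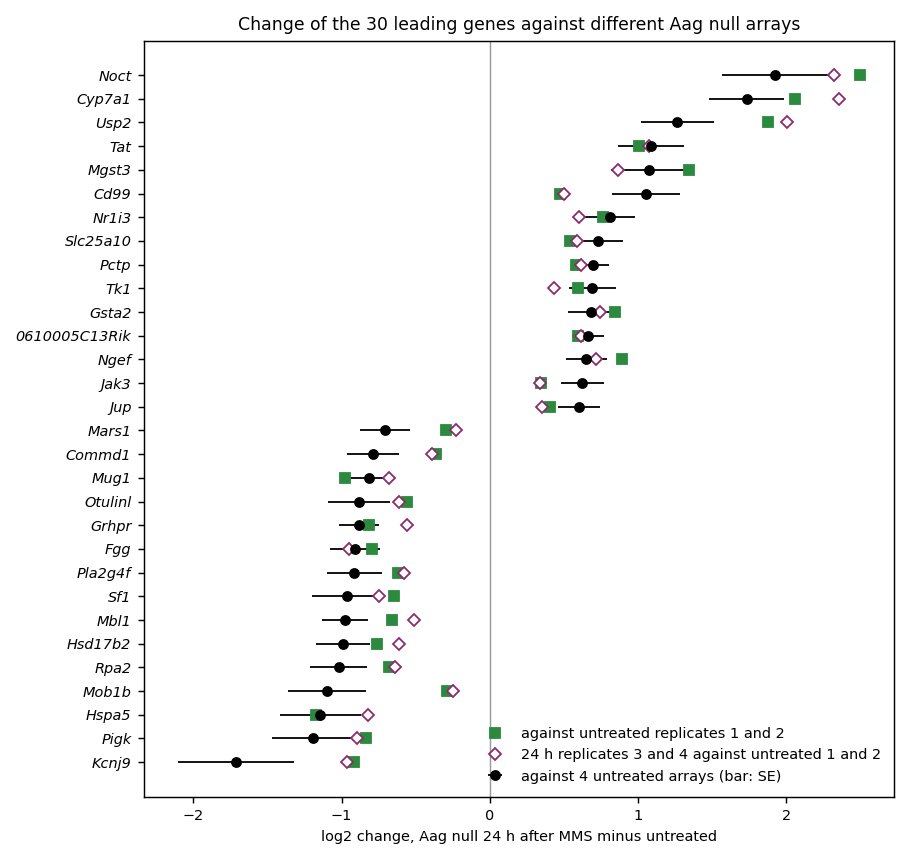
Log2 change at 24 h of the 15 leading rises and 15 leading falls, against 4 untreated arrays with its SE (circles), against untreated replicates 1 and 2 (squares), and for 24 h replicates 3 and 4 against untreated 1 and 2 (diamonds). Noct, Cyp7a1 and Usp2 grow when the matched untreated arrays are used, whereas Kcnj9, Mob1b, Rpa2 and Commd1 shrink.

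Genes of the urea cycle and amino acid breakdown gave 2 calls, both upward, of 23 tested (1.08% of all genes were called), with a list median of 0.12. Against untreated replicates 1 and 2 neither was called: Ahcy, which splits S-adenosylhomocysteine, was higher (0.54, adjusted p = 0.046), Bhmt, which remethylates homocysteine, and Gldc were lower (-0.93 and -1.07, adjusted p = 0.044 and 0.025), and the median was -0.04. Another probe set of Bhmt had the opposite sign at 24 h against all 4. Tat, tyrosine aminotransferase, a classical glucocorticoid-induced enzyme, read 9.34, 9.69, 9.22 and 9.49 untreated and 10.28, 10.63, 10.67 and 10.50 at 24 h. The groups lay apart, and Tat rose by 1.09 (SE 0.22, 2.12-fold, adjusted p = 0.022). Its size held at 1.01 against replicates 1 and 2, though not its call (adjusted p = 0.098), and the call was also lost without untreated replicate 3 (1.01, adjusted p = 0.071), without 24 h replicate 2 (1.05, adjusted p = 0.088) and without 24 h replicate 3 (1.04, adjusted p = 0.069). Hpd, the next enzyme of tyrosine breakdown, rose by 0.38 (adjusted p = 0.032), with 0.31 (adjusted p = 0.20) against replicates 1 and 2. Among 18 tested glucocorticoid receptor targets, Tat was the only call (1 higher, 0 lower), and the median was 0.09. Fkbp5, the cochaperone that restrains the receptor, read 4.92, 5.34, 5.75 and 5.57 untreated and 6.20, 5.87, 6.06 and 6.02 at 24 h. Its values did not overlap, and its change of 0.65 missed the threshold against 4 untreated arrays (adjusted p = 0.065) and passed it against replicates 1 and 2 (0.91, adjusted p = 0.021). The members ran from -1.16 for Igfbp1, a secreted carrier of IGF peptides (adjusted p = 0.40; 0.16 against replicates 1 and 2), to 2.11 for Mt1, which is described below.

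Glutathione transferases, which couple electrophiles to glutathione, gave 3 rises and 1 fall among 17 tested (0.474% and 0.601% of all genes), with a median of 0.28. The largest change on the list, -1.18 for the membrane-bound Mgst2, missed the threshold (adjusted p = 0.059; -0.60 against replicates 1 and 2). Gsta2, an alpha-class cytosolic enzyme, rose by 0.68 (SE 0.15, adjusted p = 0.032). Gstm1, the abundant mu-class enzyme, read 11.10, 11.33, 11.04 and 11.47 untreated and 11.77, 12.10, 11.63 and 11.71 at 24 h, with no overlap, and rose by 0.57 (adjusted p = 0.023). Mgst3, a membrane-bound relative, rose by 1.08 (adjusted p = 0.041), from 3.68, 3.70, 4.12 and 4.33 to 5.39, 5.64, 4.52 and 4.59. The female-typical replicates 1 and 2 made up the upper pair at 24 h, and without the female-typical arrays the change was 0.65. The call on Mgst1 was a fall of 0.73 on the log2 scale (adjusted p = 0.044), with overlapping groups, and its change was -0.45 (adjusted p = 0.41) against replicates 1 and 2. Against replicates 1 and 2, Gsta2, Gstm1, Mgst3 and Gstt2 were higher and no member was lower. Gstt2, a theta-class enzyme, read 6.46, 5.92, 7.53 and 7.76 untreated and 8.23, 7.84, 7.97 and 7.88 at 24 h, a change of 1.06 (adjusted p = 0.082) against all 4 and 1.79 (adjusted p = 0.0011) against replicates 1 and 2. The antioxidant targets of NRF2, the factor that answers electrophiles, gave 0 calls of 23 by limma, against 4 untreated arrays, 9 changes were positive and 14 negative, and the median was -0.08. Against replicates 1 and 2 the list had 1 higher call, Abcc3 (0.83), and 1 lower, Gclc, the catalytic subunit of glutathione synthesis (-0.69, adjusted p = 0.032).

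Nr1i3, the nuclear receptor CAR that answers foreign chemicals, read 8.17, 7.80, 7.87 and 7.91 untreated and 8.87, 8.94, 8.47 and 8.70 at 24 h. All treated values were above all untreated ones, and the gene rose by 0.81 (SE 0.17, 1.75-fold, adjusted p = 0.022). Against replicates 1 and 2 the change was 0.76 (adjusted p = 0.098), and where neither split enters it was 0.60 (adjusted p = 0.70). Cyp2b10, the cytochrome P450 known as a CAR target, read 5.60, 5.04, 6.50 and 6.27 untreated and 6.55, 7.21, 6.28 and 6.47 at 24 h, with overlap. It changed by 0.78 (adjusted p = 0.14) against all 4 and by 1.31 (adjusted p = 0.011) against replicates 1 and 2. No member of the xenobiotic P450 and flavin monooxygenase list was called among 20 tested (median 0.11).

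Further genes rose. Pctp, which carries phosphatidylcholine between membranes, read 3.77, 3.52, 3.36 and 3.47 untreated and 4.23, 4.15, 4.27 and 4.25 at 24 h. The treated values spanned 4.15 to 4.27 and lay above all untreated ones, and the rise was 0.69 (SE 0.11, adjusted p = 0.0028; 0.58 against replicates 1 and 2, adjusted p = 0.033). The transcript 0610005C13Rik rose by 0.66 (adjusted p = 0.0028) and by 0.59 (adjusted p = 0.018) against replicates 1 and 2. Slc25a10, the mitochondrial dicarboxylate carrier, rose by 0.73 (adjusted p = 0.036), Tk1, thymidine kinase, by 0.69 (adjusted p = 0.036) and Ngef by 0.65 (adjusted p = 0.030). Of these, Ngef was also called against replicates 1 and 2 (0.89, adjusted p = 0.0035), where Slc25a10 was at 0.54 (adjusted p = 0.25) and Tk1 at 0.59 (adjusted p = 0.22). Of the 8 fits that left out an array, Ngef was called in 5, Slc25a10 in 2 and Tk1 in 1. For Cd99, Jak3 and Jup the untreated pairs differed: Cd99, a surface glycoprotein, read 5.33 and 5.88 on replicates 1 and 2 but 4.37 and 4.54 on replicates 3 and 4, and its rise of 1.05 was 0.48 against the former (adjusted p = 0.38). The rises of Jak3 and Jup, 0.62 and 0.60, were 0.35 and 0.41 there (adjusted p = 0.43 and 0.36).

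Hspa5 (BiP), the main chaperone of the endoplasmic reticulum, was among the leading falls. ATF6 and the unfolded protein response induce it through the ERSE motif, and the RefSeq promoter shows where that motif lies. The stretch shown is 200 bases upstream of the Hspa5 start on the plus strand, at chr2:34771890-34772089 in GRCm38.p6, with the ERSE match (CCAAT, 9 bases of any kind and CCACG, searched on both strands) in capitals.
Hspa5: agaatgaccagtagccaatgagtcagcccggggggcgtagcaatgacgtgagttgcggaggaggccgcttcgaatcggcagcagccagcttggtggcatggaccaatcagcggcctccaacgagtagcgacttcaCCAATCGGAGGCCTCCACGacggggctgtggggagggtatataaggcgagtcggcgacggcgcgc
The match covers bases -65 to -47 from the start and lies just before the tatataa box. Of 32851 RefSeq windows of 300 bases (250 before to 50 after a start), 0.119% hold this motif, and among windows of the 59 called genes Hspa5 alone does (48 of the 59 have a window).

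On the arrays Hspa5 read 7.17, 8.34, 7.98 and 7.42 untreated and 6.39, 6.07, 6.86 and 7.02 at 24 h. The highest treated value, 7.02, stood just under the lowest untreated one, 7.17. Hspa5 fell by 1.14 (log2 scale, SE 0.27, 2.21-fold lower, adjusted p = 0.041). Against replicates 1 and 2 the size held (-1.17) without a call (adjusted p = 0.12), and without the female-typical arrays, which were the lower pair at 24 h, it was -0.71. Hspa5 was called in 2 of the 8 fits that left out an array. Of 21 tested genes of endoplasmic reticulum stress, Hspa5 was called alone, and 19 of 21 changes were negative, with a median of -0.27 against 0.02 for all genes. Manf, a secreted factor induced with Hspa5, had a change of -0.92 (adjusted p = 0.18), the cochaperone Dnajb11 -1.10 (adjusted p = 0.19) and the transcription factor Xbp1 -0.75. Canx and Ero1a were the positive exceptions. Proteasome subunits, which degrade tagged proteins, leaned the same way: 28 of 31 changes were negative, 15 of 31 had groups that did not overlap (12.7% of all genes), and the median was -0.34. Psmd1, a regulatory subunit, was the only call (a fall of 0.46 on the log2 scale, adjusted p = 0.032; -0.31, adjusted p = 0.26, against replicates 1 and 2), and there the median was -0.21 with no call. Where neither split enters the proteasome median was -0.10 and that of the endoplasmic reticulum list -0.24.

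Plasma proteins made by the hepatocyte made up several falls. Mbl1, mannose-binding lectin A of the complement cascade, read 6.15, 6.46, 7.12 and 6.75 untreated and 5.62, 5.37, 5.77 and 5.82 at 24 h. It fell by 0.97 (log2 scale, SE 0.15, 1.96-fold lower, adjusted p = 0.0028) and by 0.66 against replicates 1 and 2 (adjusted p = 0.0295). Where neither split enters its change was -0.51 (adjusted p = 0.40). Fgg, the fibrinogen gamma chain, read 9.05, 8.83, 9.35 and 9.0 untreated and 8.58, 8.03, 8.20 and 7.78 at 24 h. All treated livers were lower, and Fgg fell by 0.91 (log2 scale, SE 0.17, adjusted p = 0.011); against replicates 1 and 2 the change was -0.80 (adjusted p = 0.072), and without 24 h replicate 2 it was -0.87 (adjusted p = 0.0501). Fgb, the beta chain, changed by -0.80 (adjusted p = 0.059). The murinoglobulins Mug1 and Mug2, protease inhibitors of mouse plasma, fell by 0.82 and 0.61 on the log2 scale (adjusted p = 0.030 and 0.022), and by 0.98 and 0.72 against replicates 1 and 2 (adjusted p = 0.025 and 0.021). Ttr, the thyroxine carrier transthyretin, was called with a fall of 0.37 on the log2 scale, but in none of the 8 fits that left out an array, nor against replicates 1 and 2 (-0.41, adjusted p = 0.093).

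The lists around these genes moved less. Among 24 tested acute phase genes Fgg was the only call (0 higher, 1 lower), and the median was -0.02. Saa2, a serum amyloid A, read 5.67, 6.26, 10.45 and 7.19 at 24 h against 7.10, 7.20, 6.19 and 6.34 untreated. Replicate 3 stood far above the rest, and the change was 0.69 with an SE of 0.72. Among 15 complement components Mbl1 was the only call, 13 changes were negative and the median was -0.32. C9, the pore-forming component, had a change of -0.93, C4bp -0.64 and the macrophage products C1qb and C1qa -0.56 and -0.47. The mean level of the 15 was 7.38 to 7.44 on the untreated arrays and 6.88 to 7.24 at 24 h, with no overlap. Of 43 lists, the same held for the proteasome, clock, hepatocyte, iron handling, base excision repair, stellate cell and endothelial lists. The mean levels of the remaining lists overlapped. Kupffer cell and macrophage markers, which include C1qa, C1qb and C1qc, moved beside them: 0 of 12 were called, 10 of 12 changes were negative, the median was -0.32 and the mean level ran from 5.32 to 5.69 untreated and from 5.05 to 5.39 at 24 h. The defining markers Clec4f and Csf1r had changes of -0.40 and -0.41, and Adgre1 0.03. The part of these cells in the complement values was not tested. A list of 26 further plasma proteins, mostly coagulation factors and serpins and without the fibrinogen chains, had Ttr as its only call (median -0.13).

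Grhpr, glyoxylate and hydroxypyruvate reductase, was called in all 8 fits that left out an array. It read 8.48, 8.42, 8.53 and 8.63 untreated and 7.46, 7.29, 7.95 and 7.82 at 24 h. The untreated values were tight, the treated ones all lower, with the female-typical pair lowest. Grhpr fell by 0.88 (log2 scale, SE 0.13, 1.84-fold lower, adjusted p = 0.002), by 0.82 against replicates 1 and 2 (adjusted p = 0.018), and by 0.56 where neither split enters (adjusted p = 0.27). Apmap, a membrane protein first known from adipocytes, fell by 0.63 on the log2 scale (adjusted p = 0.002; -0.52 against replicates 1 and 2, adjusted p = 0.018). Gpd1, cytosolic glycerol-3-phosphate dehydrogenase, fell by 0.60 on the log2 scale (adjusted p = 0.041; -0.88 against replicates 1 and 2, adjusted p = 0.0025). Hsd17b2, which oxidizes estradiol and testosterone, fell by 0.99 on the log2 scale (adjusted p = 0.011), and its change against replicates 1 and 2 was -0.76 (adjusted p = 0.10). Egr1, an immediate early transcription factor, fell by 0.62 on the log2 scale (adjusted p = 0.022) and by 0.79 against replicates 1 and 2 (adjusted p = 0.0074), although its other probe set had the opposite sign. It was the only call among 11 immediate early factors (0 higher, 1 lower; median 0.06).

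The remaining large falls shrank against the matched untreated arrays. Kcnj9, a potassium channel subunit, read 5.48, 5.88, 7.24 and 7.29 untreated and 4.60, 5.01, 4.74 and 4.70 at 24 h. Untreated replicates 3 and 4 were more than 1 log2 unit above replicates 1 and 2, and the fall of 1.71 on the log2 scale (adjusted p = 0.034) became -0.92 (adjusted p = 0.42); its other probe set had the opposite sign. Mob1b, a Hippo pathway adaptor, went from -1.10 to -0.29 between these comparisons, Commd1 from -0.79 to -0.36 and Mars1, methionyl-tRNA synthetase, from -0.71 to -0.30. Pigk, Sf1, Pla2g4f and Otulinl went from -1.19, -0.96, -0.91 and -0.88 to -0.84, -0.65, -0.62 and -0.56. None of these 8 was called against replicates 1 and 2, and both other probe sets of Otulinl had the opposite sign. Of the 33 falls, 20 had both untreated replicates 3 and 4 above both replicates 1 and 2, which is 60.6% against 28.5% of all genes tested. The falls were called on these same arrays, and a fall with that split is smaller against replicates 1 and 2 by arithmetic. Of the 26 rises, 10 had replicates 3 and 4 both below, 38.5% against 33.2% of all genes tested. Smaller in size against replicates 1 and 2 were 25 of the 33 falls and 14 of the 26 rises. The part of the array set in these falls was not tested.

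Of the genes tested on the p53, repair and replication lists, Rpa2 and Tk1 passed the test at 24 h. Cdkn1a, the p53-induced inhibitor of cyclin-dependent kinases, read 6.61, 6.15, 6.19 and 6.17 untreated and 6.29, 6.52, 6.33 and 6.27 at 24 h, a difference of 0.07 (95% interval -0.23 to 0.37, adjusted p = 0.86) that was -0.03 against replicates 1 and 2. Mdm2, which feeds back on p53, had a difference of 0.11 (adjusted p = 0.80). Of 18 tested p53 targets none was called, and the median was 0.06; Plk3 had a change of 0.51 (adjusted p = 0.20) and Ei24 -0.32 (adjusted p = 0.41). Of 10 tested base excision and alkylation repair genes none was called, and the median was -0.01. In 3 of the 10 the groups did not overlap (12.7% of all genes). The mean level of the 10 was 4.852 to 5.026 untreated and 4.780 to 4.835 at 24 h, without overlap, as in the other lists named above. Ung, the uracil glycosylase, had a change of -0.76 (adjusted p = 0.092; -0.39 against replicates 1 and 2), Parp1, which binds strand breaks, -0.43 (adjusted p = 0.19), Apex1 -0.39 (adjusted p = 0.35) and Xrcc1 -0.15 (adjusted p = 0.75). Ung and Xrcc1 each had another probe set of opposite sign. Mgmt, Polb and Ccng1 were too dim to be tested, and Bax, Gdf15 and Saa1 had no probe set named for that gene alone. Among 15 other repair and checkpoint genes Rpa2, part of the RPA complex that coats unpaired DNA, was the only call. It read 4.20, 4.91, 5.17 and 5.31 untreated and 3.94, 3.74, 3.92 and 3.92 at 24 h, a fall of 1.02 on the log2 scale (adjusted p = 0.011), with -0.68 (adjusted p = 0.15) against replicates 1 and 2. Tk1 was the only call among 14 replication genes, but was called in only 1 of the 8 fits that left out an array. Cdt1 and Mcm3, which license origins, had changes of -0.27 and -0.22.

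**Figure D3:**
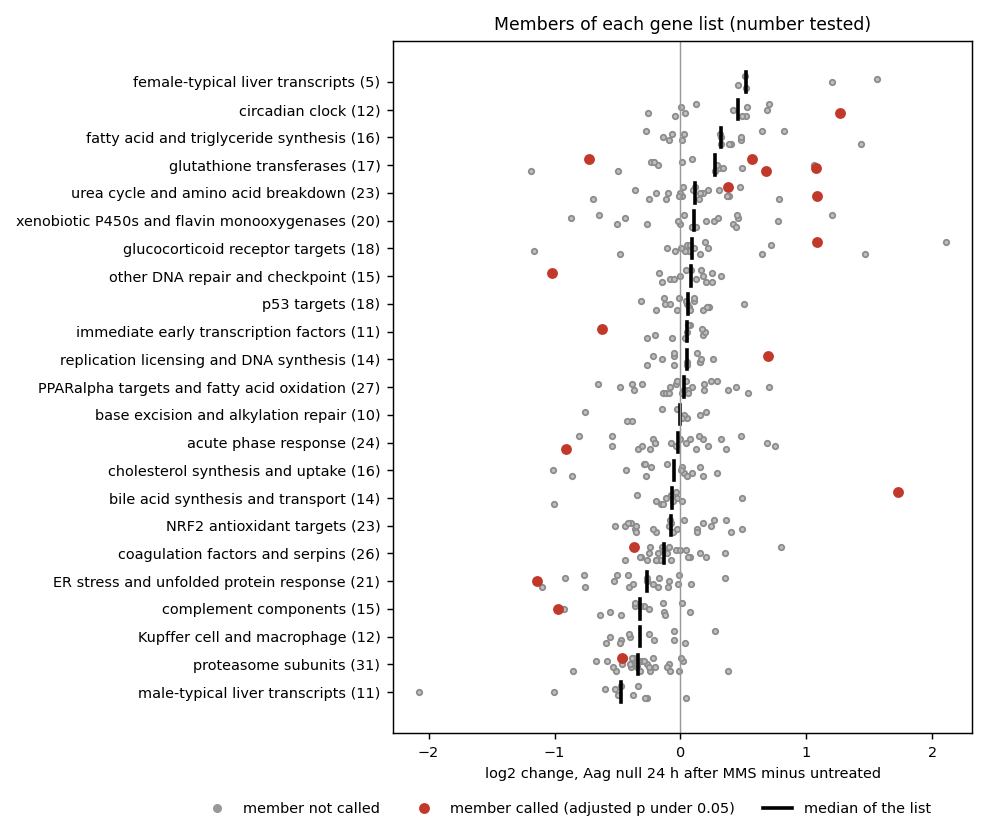
Log2 change at 24 h against 4 untreated arrays for each tested member of 23 gene lists, ordered by list median (black bar), with called members in red and the number tested in brackets. Most lists hold 0 or 1 called member; the endoplasmic reticulum, complement and proteasome lists lie left of 0 with medians of -0.27, -0.32 and -0.34.

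A further set of genes was called against untreated replicates 1 and 2 and not against all 4, and was picked for description after its values were seen. Mt1, metallothionein 1, a metal-binding protein induced by metals and glucocorticoids, read 6.62, 6.31, 9.02 and 8.10 untreated and 10.12, 10.32, 9.82 and 8.21 at 24 h. Its change was 2.11 against all 4 (adjusted p = 0.053), and it was higher by 3.16 against replicates 1 and 2 (adjusted p = 0.0038). Mt2, its neighbour in the genome, changed by 1.46 (adjusted p = 0.21) and by 2.38 (adjusted p = 0.067).

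The metal factor MTF-1 binds metal response elements near the Mt1 start, shown here from RefSeq because Mt1 had the largest change against replicates 1 and 2. The stretch covers bases -23 to 27 from the annotated start on the plus strand, at chr8:94179066-94179115 in GRCm38.p6, with matches to the core TGCACNC or TGCGCNC (searched on both strands) in capitals.
Mt1: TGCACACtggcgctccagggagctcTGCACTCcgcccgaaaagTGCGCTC
The stretch was cut from the first to the last match in the 300-base Mt1 window, so all 3 matches lie in it by construction. The core is common: 25.7% of all windows hold it.

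Alas1, the rate-limiting enzyme of heme synthesis, read 7.42, 8.59, 10.45 and 8.91 untreated and 10.53, 9.89, 10.50 and 11.26 at 24 h; it was higher by 2.54 against replicates 1 and 2 (adjusted p = 0.018), with 1.70 (adjusted p = 0.094) against all 4. Thrsp, which promotes lipogenesis, was higher by 2.36 (adjusted p = 0.0052; 1.43 against all 4), and Upp2, uridine phosphorylase 2, by 1.63 (adjusted p = 0.0014; 1.05 against all 4). Values of Upp2 did not overlap between treated and untreated livers. Cebpb, a stress and fasting transcription factor, was higher by 1.34, Ces1d, a carboxylesterase, by 1.79 and Erdr1 by 3.01. Lower against replicates 1 and 2 were Ctse, cathepsin E (-1.78, with another probe set of opposite sign at 24 h against all 4), Ddc, which makes dopamine and serotonin (-1.13), and Gldc of the glycine cleavage system (-1.07). Where neither split enters, 11 genes were called, 10 higher and 1 lower: Ces1d, Cyp7a1, Dbp, Erdr1, Gstt2, Noct, Pcsk4, Tspan4, Upp2 and Usp2 were higher, and Ctse was lower (0.200% of genes tested). Of these, Cyp7a1, Noct and Usp2 were also called against all 4 untreated arrays.

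**Figure D4:**
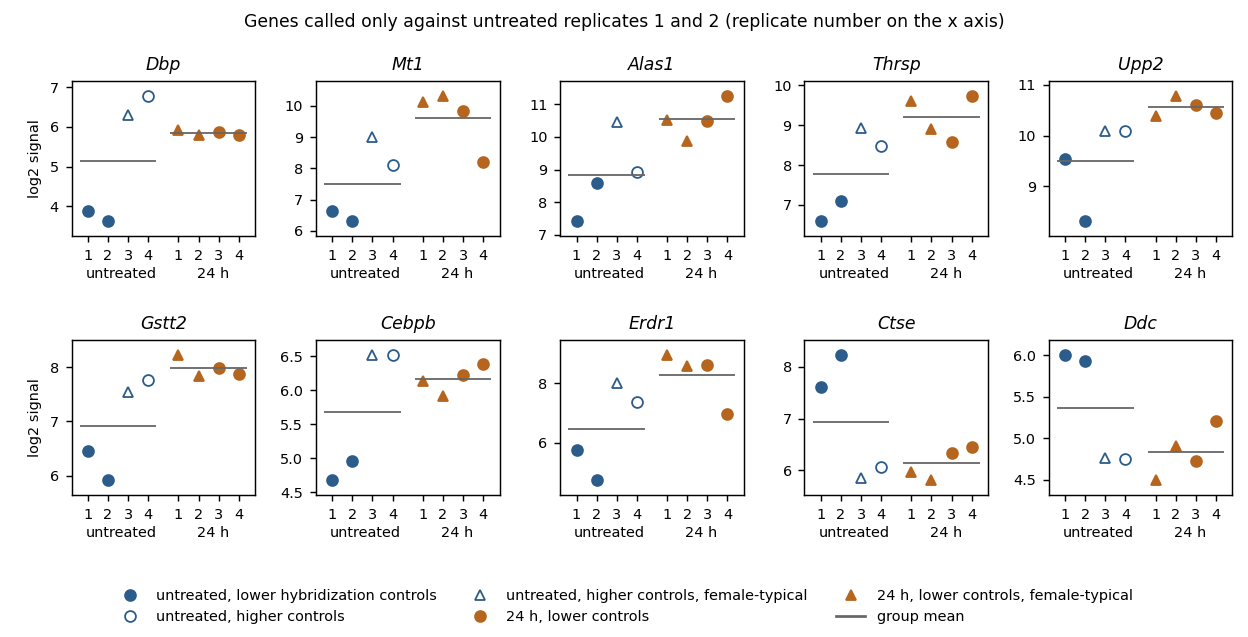
Log2 signal on each of the 8 Aag null arrays for 10 genes called against untreated replicates 1 and 2 and not against all 4, with symbols for array set and female-typical transcripts and a line at each group mean. In Dbp, Cebpb and Ddc the open symbols, untreated replicates 3 and 4, lie within or beyond the range at 24 h, away from replicates 1 and 2.

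Lipid genes as lists gave no calls against 4 untreated arrays. Of 27 tested PPARalpha targets and fatty acid oxidation genes 0 were called by limma, with a median of 0.03, and against replicates 1 and 2 Vnn1, pantetheinase, was higher (1.44, adjusted p = 0.025), with a list median of 0.28. Cpt1a, which admits fatty acids to mitochondria, read 8.07, 8.0, 8.50 and 8.77 untreated and 8.43, 8.32, 8.72 and 8.61 at 24 h. Its values overlapped, and the change was 0.19 (adjusted p = 0.67). Of 16 fatty acid and triglyceride synthesis genes 12 had positive changes, the median was 0.32 and none was called. Against replicates 1 and 2 the list median was 0.49 and Thrsp was the only call, and without the female-typical arrays the median was 0.13. Srebf1, the main regulator of these genes, had a change of 0.65 (adjusted p = 0.13) against all 4. Of 16 cholesterol synthesis and uptake genes none was called (median -0.05), and Idi1 and Hmgcs1 had changes of -1.01 and -0.86 (adjusted p = 0.091 and 0.26).

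Sex-typical transcripts lay apart between arrays within both groups. Of 5 tested female-typical and 11 tested male-typical transcripts none was called, and their medians were 0.52 and -0.47, or 0.13 and -0.09 without the female-typical arrays. At 24 h 2 of 4 arrays carried the female-typical pattern, against 1 of 4 untreated. With the female-typical pattern as a term 69 genes were called, and with the array set as a further term 33 genes, of which 13 are among the 59.

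Compared with the mean of the other MMS-treated Aag null arrays (6, 12 and 48 h), 1 gene stood out at 24 h, 0.0182% of those tested. Gamt, which makes creatine from guanidinoacetate, read 8.30, 8.37, 8.25 and 8.21 at 24 h, against 7.78 ± 0.04 (SD, n = 3) at 6 h, 7.58 ± 0.03 (n = 2) at 12 h and 7.71 ± 0.18 (n = 3) at 48 h. It was higher by 0.59 (SE 0.09, adjusted p = 0.0094), and untreated livers lay at 7.90 ± 0.21 (SD, n = 4). The call on Gamt was lost without 24 h replicate 1, 2 or 3 or 12 h replicate 2, where 0 genes were called. Against 6 h alone, 5 genes were lower, with Hspa5 first (log2 change -1.76, adjusted p = 0.019; 0.0911% of genes tested), and 3 were higher, with Cyp2b10 first (1.43, adjusted p = 0.036; 0.0547%). Against 12 h none was called by limma (174 at unadjusted p under 0.05), and against 48 h 14 were higher and 2 lower (0.255% and 0.0364%, 0.292% together). Grhpr was among the latter (log2 change -0.72, adjusted p = 0.033). No array at 6, 12 or 48 h carried female-typical transcripts, whereas replicates 1 and 2 at 24 h did. That pair was lowest at 24 h in Hspa5 and Grhpr and highest in Cyp2b10, and its part in these differences was not tested. Cyp7a1 was at 5.36 ± 0.05 (SD, n = 3) at 6 h, 4.74 ± 0.79 (n = 2) at 12 h, 5.49 ± 0.36 (n = 4) at 24 h and 4.92 ± 0.62 (n = 3) at 48 h, and the ranges of neighbouring times overlapped.

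Compared with WT liver at 24 h (2 arrays), Aag null liver had no gene past the threshold by limma, 0 of 5487, with 68 at unadjusted p under 0.05. Cyp7a1 read 5.49 ± 0.36 (SD, n = 4) in Aag null and 5.84 ± 0.28 (n = 2) in WT liver, a difference of -0.34 (95% interval -0.99 to 0.30). For Noct the difference was 0.58 (-0.33 to 1.49), for Usp2 0.16 (-0.46 to 0.78), for Hspa5 -0.61 (-1.31 to 0.08) and for Grhpr -0.46 (-0.80 to -0.12). These intervals are not adjusted for the number of genes. No WT array carried female-typical transcripts. The part of the female-typical Aag null pair at 24 h in the Hspa5 and Grhpr differences was not tested. Against its own 3 untreated arrays WT liver at 24 h had Cyp7a1 higher by 2.24 (adjusted p = 0.00016), Noct by 1.65 (adjusted p = 0.021) and Usp2 by 1.35 (adjusted p = 0.0071). WT liver at 24 h had 759 genes called, 13.8% of those tested (6.63% higher and 7.2% lower). All 3 WT untreated arrays had high hybridization controls and the WT 24 h arrays did not, so array set and treatment cannot be told apart in that response.

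By limma's interaction term 2 genes, 0.0364% of those tested, differed in their response at 24 h between Aag null and WT arrays. All WT untreated arrays had high hybridization controls, but among Aag null untreated arrays only replicates 3 and 4 did. Genotype and array set can therefore not be told apart in these differences. Aqp8, a water channel of hepatocytes, read 6.08, 5.82, 5.87 and 5.94 untreated and 6.54, 6.33, 5.79 and 5.61 at 24 h in Aag null liver, against 6.59 ± 0.10 (SD, n = 3) untreated and 5.24 ± 0.08 (n = 2) at 24 h in WT liver. Its Aag null change was 0.14 and its WT change -1.35, a difference of 1.49 (SE 0.24, adjusted p = 0.014). The higher Aag null values at 24 h were those of the female-typical replicates, and without female-typical arrays the Aag null change was -0.25 and no gene was called. Tubb2a, a beta tubulin, changed by -0.54 in Aag null and -2.71 in WT liver (difference 2.17, SE 0.38, adjusted p = 0.028). Its Aag null change was -1.05 against untreated replicates 1 and 2 (adjusted p = 0.023) and -1.10 where neither split enters. Untreated means were 5.55 in Aag null and 7.37 in WT liver, and means at 24 h were 5.01 and 4.66. Another probe set of Tubb2a had the opposite sign at 24 h in Aag null liver. No gene was called without WT untreated replicate 1 or either WT 24 h array, and 31 were called without WT untreated replicate 3.

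**Figure D5:**
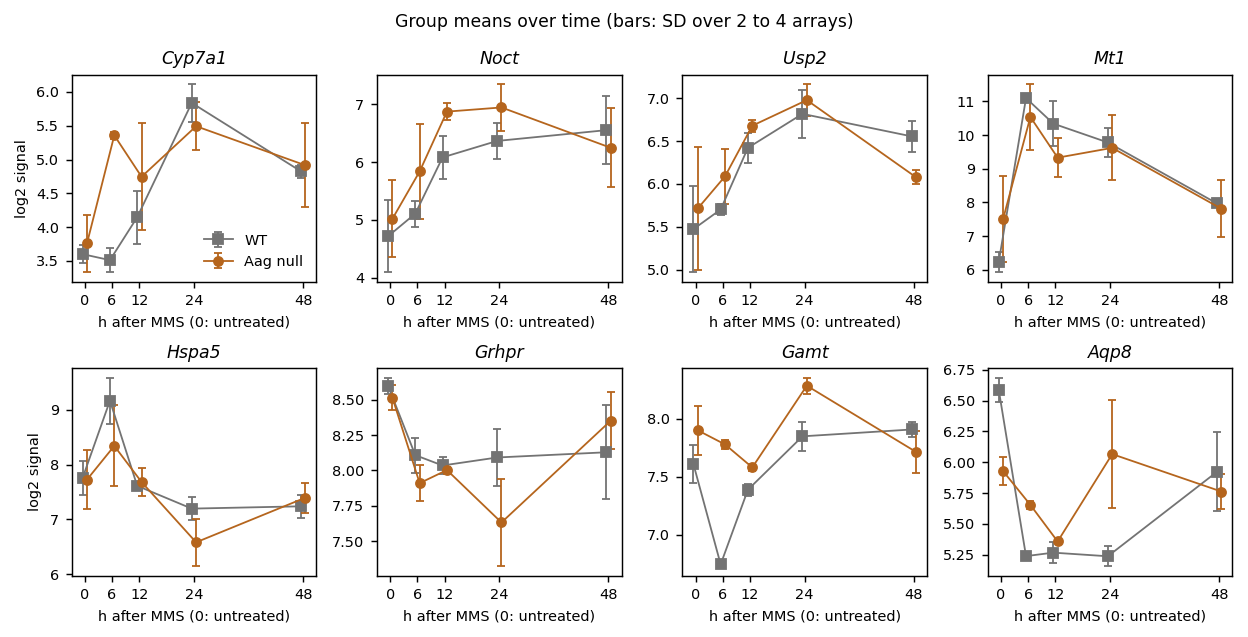
Mean log2 signal with SD of 8 genes in untreated liver (0) and at 6, 12, 24 and 48 h after MMS, Aag null (circles) and WT (squares), 2 to 4 arrays per point and a scale of its own for each gene. In Aag null liver at 24 h Gamt is at its highest mean (8.28) and Hspa5 and Grhpr at their lowest (6.58 and 7.63). For Hspa5 and Grhpr the lower pair at 24 h is replicates 1 and 2, the only treated arrays with female-typical transcripts.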

How the data were processed

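RNA of whole liver was measured on 28 Affymetrix arrays, and the 8 described here were grouped by their titles. The authors deposited 1 value per probe set and array, on a log2 scale as judged from the values. Methods of probe set summary, background correction and scaling were not given in the sources used here. Of 12488 probe sets, 66 controls were left out and 12422 were quantile normalized. Probe sets with 1 gene symbol (10855; 396 had several, 1237 none) were reduced to the brightest per gene, 8251 genes, of which 5487 lay above the array median on at least 2 arrays. limma 3.58.1 (R 4.3.3) was fitted over all 28 arrays (lmFit and eBayes, 18 residual degrees of freedom), with Benjamini-Hochberg adjustment over all 5487 genes and a threshold of 0.05. The comparisons were 24 h against untreated, against other times, against WT at 24 h, and the difference of the 24 h responses. Genes were named by rule (the 15 largest called changes in each direction with groups not overlapping and the same sign against untreated replicates 1 and 2, up to 4 of each list by adjusted p, and genes set by name); others were chosen after their values were seen. Members and gene lists were chosen with earlier results of these data known. The fit was tested on simulated data. Alternatives covered scaling, filter, probe sets, block, weights and arrays left out. Motifs were searched with Python 3.11.15 and figures drawn with matplotlib 3.10.9.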

Additional observations from a re-analysis of the deposited data

Results flagged for a closer look

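In 15 of 230 sets of 4 arrays (115 genes, untreated and 24 h), 1 array stood apart from the other 3 by the Dixon criterion, which chance meets in about 1 of 20 sets. At 24 h these were replicate 1 for Noct (7.55), Klf2 (5.65) and Ebp (6.41), and replicate 2 for Rpa2 (3.74), Plk3 (10.2), Angptl4 (5.36) and Bhmt (8.81). Among untreated arrays they were replicate 1 for Cdt1 (5.25), Ttr (9.11) and Cdkn1a (6.61), and replicate 3 for 0610005C13Rik (7.65). Untreated replicate 3, which carried female-typical transcripts, also stood apart for the sex-typical genes Sult2a2 (5.41), Cyp17a1 (7.47), Cyp2b13 (6.00) and Hsd3b5 (5.27). The 24 h response differed between Aag null and WT arrays for Aqp8 (difference 1.49) and Tubb2a (difference 2.17) by limma's interaction term. Genotype and array set cannot be told apart in these differences.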

How the results depend on the processing

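Of the 24 h against untreated calls, 59 became 108 with values as deposited, 370 with array weights (whose fit gave a convergence warning), 5 with these groups alone in the fit, 1 without female-typical arrays, 11 where neither split enters, 33 with array set and female-typical pattern as terms, and 9 to 198 on leaving out each array, with only untreated replicate 2 moving it by less than 1.5 times. The 1 call against other times became 0 as deposited, with median centring, with the mean of probe sets, without female-typical arrays and with the female-typical term, 251 with array weights, 10 with these groups alone, and 0 to 7 on leaving out each array. The 0 calls against WT became 3 with array weights and 0 to 1 on leaving out an array. The 2 calls on the difference of responses became 1 with median centring, 23 without the brightness filter, 13 with array weights, 1 with these groups alone, 0 without female-typical arrays and 0 to 31 on leaving out each array. The 1 call with these groups alone was a lower one, whereas Aqp8 and Tubb2a were higher, so neither was kept there. The cause of these shifts in counts was not tested.

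With the replicate number as a block the counts were 43, 3, 0 and 2. Correlations of same-numbered arrays' deviations were -0.23, -0.03, -0.23 and 0.11, so the numbers were not taken as pairs.

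No change called against untreated reversed sign among 876 values for 44 genes. Of 1835 values for 92 genes not called, 26 reversed. Aqp8 was -0.25 without female-typical arrays, -0.25 where neither split enters, -0.12 with both terms and -0.019 to 0.29 on leaving out each array. Cdkn1a was -0.031 against untreated replicates 1 and 2, -0.013 without female-typical arrays, -0.085 where neither split enters and -0.071 with both terms. Ercc5 was -0.013 against replicates 1 and 2, -0.053 where neither split enters and -0.062 with both terms. Where neither split enters, Plk2 was -0.037, Btg2 -0.0090, Fabp1 0.056 and Angptl4 0.091, the last also 0.095 with both terms. Cyp2b13 was -0.057 with both terms, -0.13 with the female-typical term and -0.13 to 1.22 on leaving out each array. Vnn1 was -0.063 with array weights, -0.079 with the female-typical term and -0.26 to 0.71 on leaving out each array. Cyp2e1 was -0.062 with median centring, Egfr 0.0066 without female-typical arrays, and Saa2 -0.33 to 1.26 on leaving out each array.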

Other observations

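Other gene lists held few calls at 24 h against 4 untreated arrays. Among 42 genes of the mitochondrial respiratory chain none was called, 31 changes were negative and the median was -0.14, with 0.04 against untreated replicates 1 and 2. Cytosolic ribosomal proteins gave none of 23 (median -0.12, and 0.06 against replicates 1 and 2), and cytosolic heat shock proteins none of 13 (median -0.17, 11 negative). The heat shock median was -0.11 against replicates 1 and 2 and -0.03 where neither split enters. Among 19 genes of NF-kB, cytokines and chemokines, the TNF receptor Tnfrsf1b was the only call (median -0.02). None was called among 18 interferon response genes (median 0.05), 17 cyclins and mitotic genes (0.04), 19 genes of cell death and survival (0.11), 17 of iron handling (0.13), 17 apolipoproteins (-0.04) or 11 targets of ATF4 (0.01).

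Markers of other liver cells gave no calls. The 16 stellate cell and matrix markers had a median of -0.14 with 12 negative, and their mean level was 5.43 to 5.56 untreated and 5.26 to 5.35 at 24 h, without overlap. Endothelial markers (7 tested) had a median of -0.09, neutrophil markers (7) 0.07, lymphocyte markers (7) 0.02 and erythroid markers (5) 0.13. Mean levels of the endothelial list did not overlap either (5.132 to 5.298 untreated, 5.030 to 5.127 at 24 h). Of 43 lists, those of the base excision repair, clock, complement, iron handling, proteasome and hepatocyte lists also lay apart, and those of the remaining lists overlapped.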
